A study of Mus musculus with 6 samples.

Results

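miR-155 and miR-146 are microRNAs (miRNAs), short RNAs that lower the output of messenger RNAs they pair with through their seed, bases 2 to 8 of the mature strand. They were followed here in natural regulatory T cells, labelled CD4+25+, and in conventional CD4+25- T cells of the mouse. The members were the rows 1org-155 and 1org-146 of the deposited value table, 2 of its 171 miRNA probes, beside which it holds 7 probes for other small RNAs. The rule took them by their row names and used no measured value, but they were chosen with earlier results of these data known. Each of 6 two-colour arrays compared total RNA of both cell types, and the design gives 3 biological replicates, each hybridised again with the dyes swapped. CD4+CD25+ RNA carried Cy5 on arrays 1, 3 and 5 and Cy3 on arrays 2, 4 and 6. Details not given in the sources used here were strain, age, sorting, any activation of the cells and whether replicates came from separate mice. The p-values therefore measure only the spread between these samples.

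As background, miR-155 is processed from the Bic transcript, which antigen receptor signalling and NF-kB switch on, and the regulatory T cell factor Foxp3 binds its gene. It acts on Socs1, an inhibitor of cytokine signalling, and regulatory T cells without it compete poorly for interleukin 2. miR-146a is itself induced by NF-kB and represses Traf6 and Irak1, which signal towards NF-kB, so it forms a feedback brake.

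The mature strands are shown because the name of the miR-146 probe leaves 2 miRNAs possible. The sequences are from RefSeq (build GRCm38.p6), matched by miRNA name for both members, and the capitals mark the seed:
miR-155-5p: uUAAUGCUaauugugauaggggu
miR-146a-5p: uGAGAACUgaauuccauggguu
miR-146b-5p: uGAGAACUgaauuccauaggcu

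The seed of miR-155 was found in 1 mature miRNA of the 1738 in that table, miR-155-5p itself. The miR-146 seed was found in 2, miR-146a-5p and miR-146b-5p. These 2 are identical at 20 of 22 bases and differ by the substitutions G18A and U21C, counted from the 5′ end with the miR-146a base first. The table of probe genes names Mirn155 for probe 1org-155 and lists no gene for 1org-146. The deposited table holds 1 row with that number, and the probe's own sequence was not used here, so a contribution of miR-146b was not tested. The seeds of miR-155 and miR-146 differ, so the members form no seed family.

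The precursor hairpins show where each strand is cut from, with the mature strand in capitals:
Mir155: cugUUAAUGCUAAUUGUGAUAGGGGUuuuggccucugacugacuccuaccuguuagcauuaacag
Mir146: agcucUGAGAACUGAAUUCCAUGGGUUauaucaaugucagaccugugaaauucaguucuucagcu
Mir146b: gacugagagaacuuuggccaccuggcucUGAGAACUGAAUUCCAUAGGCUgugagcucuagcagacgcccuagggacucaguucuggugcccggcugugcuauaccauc

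In RefSeq's GRCm38.p6, Mir155 lies at chr16:84714140-84714204 on the plus strand, within the span of the non-coding gene Mir155hg (Bic). Mir146 lies at chr11:43374397-43374461 on the minus strand, inside no other annotated gene. Mir146b lies at chr19:46342762-46342870 on the plus strand, within the non-coding gene Gm36493. Whether a hairpin is exonic or intronic was not analysed here, and the deposited table names no build.

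Values below are log2 ratios with CD4+CD25+ cells above the line and CD4+CD25- cells below it. The table gives 1 log ratio per probe and array and states neither its base, taken here as log2, nor its direction, which the channel order makes likely to be Cy5 over Cy3. Arrays 2, 4 and 6 were therefore multiplied by -1. If the authors had already done so, miR-155 would read -0.96 ± 0.452 (SD, n = 3; limma adjusted p = 0.0162) and miR-146 0.32 ± 0.522 (adjusted p = 0.252), and with Cy3 over Cy5 every sign would turn. With the turning already done, the ratios relative to the array's miRNA median would be -0.089 for miR-155 (limma adjusted p = 0.741) and 1.19 for miR-146 (0.000279). After turning, miR-223 had 3.62, 3.54 and 4.99 on arrays 1, 3 and 5 and 4.90, 2.93 and 4.71 on arrays 2, 4 and 6. It ranked 1 on all 6 arrays, and before turning its sign differed between the dye orientations. The medians of the miRNA probes, after turning, were -0.085, -0.31 and 0.097 with CD4+CD25+ in Cy5 and 1.83, 1.29 and 1.82 with it in Cy3, so the zero point of the arrays differed with the dye. Arrays of one orientation correlated at 0.521 to 0.622 (Cy5) and 0.901 to 0.918 (Cy3) across probes, and turned arrays of opposite dye at -0.251 to 0.369. A ratio holds no level, so the presence of T cell miRNAs could not be checked, and Foxp3 and CD25 transcripts are not probes of this table. Each replicate value is the mean of 2 arrays of opposite dye; because the pairs are not labelled, the largest SD and largest p of the 6 possible pairings are given.

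miR-155 was higher in CD4+CD25+ cells as deposited, and its size depended on the dye. Its log2 ratio was 0.62 on array 1, 0.15 on array 3 and 0.042 on array 5, with CD4+CD25+ in Cy5. It was 2.82 on array 2, 1.59 on array 4 and 2.18 on array 6, with CD4+CD25+ in Cy3. All 6 values were above 0, and those of the dye orientations did not overlap. The mean was 1.23 ± 0.453 (SD, n = 3), or 2.35-fold, and it passed the test (limma adjusted p = 0.00569; 95% confidence interval 0.74 to 1.73). Among the 171 miRNA probes, 67.3% passed as higher in the same way and 8.77% as lower, so the call alone does not set miR-155 apart. In RNA of whole cell populations, more cells with miR-155 and more miR-155 per cell cannot be told apart.

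miR-146 was also higher as deposited, and here both dyes gave values of like size on 5 of the 6 arrays. Its log2 ratio was 2.28 on array 1, 1.82 on array 3 and 2.03 on array 5. It was 1.81 on array 2, 0.45 on array 4 and 1.94 on array 6. All 6 were above 0, and array 4 lay apart below the other 5. The mean was 1.72 ± 0.517 (SD, n = 3), or 3.30-fold (limma adjusted p = 0.00411; interval 1.16 to 2.28), the fifth highest of the 171 probes, where miR-155 was 16th. Both calls were lost without arrays 3 and 2 (limma adjusted p = 0.0594 for each member) and without arrays 5 and 6 (0.0841 for each). No other pair of opposite arrays ended them. Of all 171 miRNA probes these fits called 0 and 2, beside 130 with all arrays, so the losses were not particular to the members. In these fits the mean was 1.11 and 1.29 for miR-155 and 1.68 and 1.59 for miR-146.

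**Figure D1:**
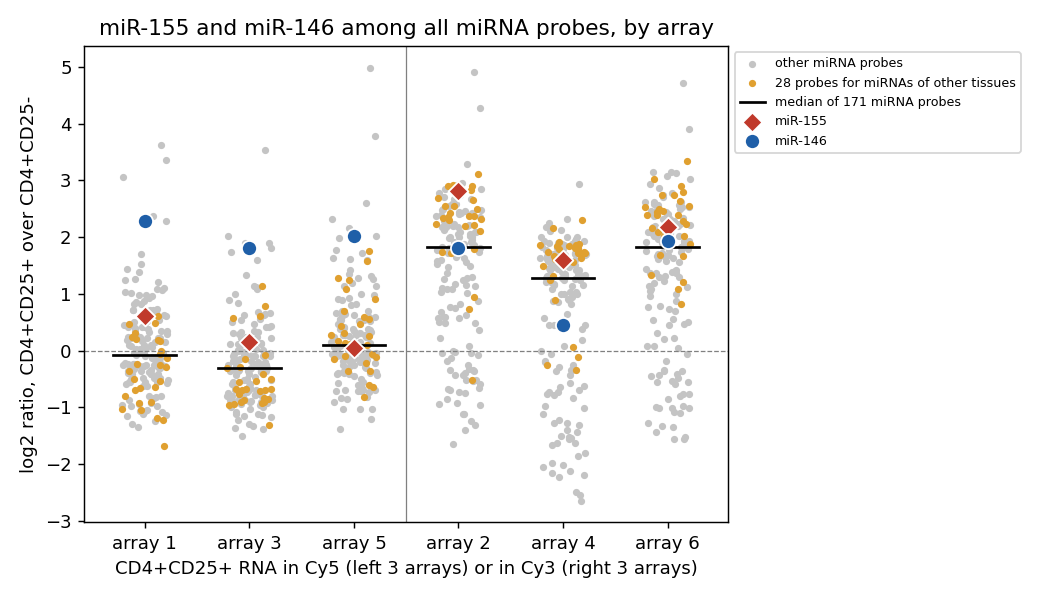
Log2 ratio, CD4+CD25+ cells over CD4+CD25- cells (vertical axis), for each of 171 miRNA probes on each array, with CD4+CD25+ in Cy5 on the left 3 and in Cy3 on the right 3 arrays. Black lines are array medians. miR-146 (blue) stands near the top of the left arrays and near or below the median of the right ones, while miR-155 (red) moves with the bulk of the probes.

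Relative to the median of the miRNA probes on its array, miR-155 had 0.70, 0.47 and -0.055 on arrays 1, 3 and 5 and 0.99, 0.30 and 0.35 on arrays 2, 4 and 6. The dye orientations now overlapped, and 5 of 6 arrays were above the median. The mean was 0.46 ± 0.362 (SD, n = 3), or 1.37-fold, which did not pass (limma adjusted p = 0.0883). Under the most favourable of the 6 pairings the limma adjusted p was 0.0306, so this call depended on the unlabelled pairing. The interval of the difference, 0.058 to 0.86, excludes 0 before adjustment over the probes. Without arrays 5 and 4 and without arrays 5 and 6 the ratio passed (0.63 with limma adjusted p = 0.0408 and 0.61 with 0.042), and without arrays 1 and 2 it was 0.27 (0.548).

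miR-146 split by dye once the array median was taken as 0. It had 2.37, 2.13 and 1.93 on arrays 1, 3 and 5, and -0.021, -0.84 and 0.12 on arrays 2, 4 and 6. The orientations were far apart, with every Cy5 array clearly above the median and the Cy3 arrays around or below it. The mean of 0.95 ± 0.360 (SD, n = 3), or 1.93-fold, passed as higher (limma adjusted p = 0.00161), which 5.26% of miRNA probes did, while 22.8% passed as lower. Over the arrays with CD4+CD25+ in Cy3 alone, the ratio was -0.25 (limma adjusted p = 0.33), against 2.14 (0.000279) over those with it in Cy5. Without arrays 1 and 6 the call was lost (0.80, limma adjusted p = 0.101). That fit called 21 miRNA probes, beside 48 with all arrays.

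Rank within an array needs no zero point. Counted from the highest of 171 miRNA probes, miR-146 ranked 5, 5 and 6 on arrays 1, 3 and 5 and 87, 117 and 78 on arrays 2, 4 and 6. miR-155 ranked 33, 43 and 93 with CD4+CD25+ in Cy5 and 14, 60 and 58 with it in Cy3. miR-146 was thus among the highest ratios in one orientation and mid-table in the other, whereas the ranks of miR-155 overlapped between orientations.

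The dye dependence was tested with limma as the ratio with CD4+CD25+ in Cy5 minus that in Cy3. As deposited it was -1.92 ± 0.442 (SE) for miR-155 (limma adjusted p = 0.000437) and 0.64 ± 0.456 for miR-146 (adjusted p = 0.198). Relative to the array median it was -0.18 ± 0.344 for miR-155 (adjusted p = 0.68) and 2.39 ± 0.346 for miR-146 (adjusted p = 1.21e-05). Which of the members showed a dye effect thus differed between the zero points. Of all miRNA probes, 70.2% had a dye effect as deposited (12 with the higher ratio in Cy5, 108 in Cy3), and 45.6% relative to the median (58 higher in Cy5, 20 in Cy3).

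**Figure D2:**
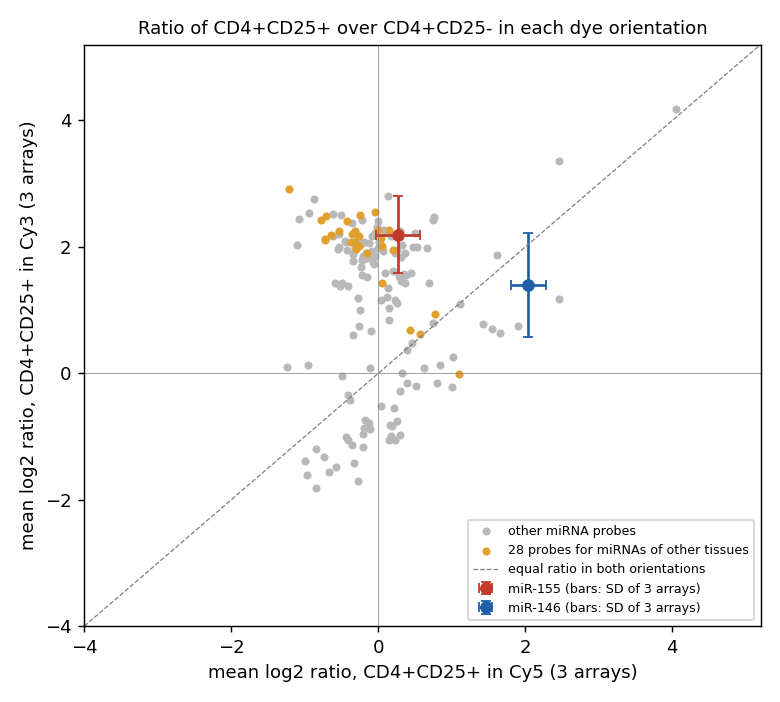
Mean log2 ratio with CD4+CD25+ in Cy5 (horizontal) against the mean with it in Cy3 (vertical) for each miRNA probe, as deposited and turned; bars on the members are SDs of 3 arrays. miR-155, at 0.27 and 2.19, sits in the cloud that holds most probes of other tissues, and miR-146, at 2.04 and 1.40, sits nearer the line of equal ratios.

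The arrays held 28 probes for miRNAs known from pancreas, brain, liver, muscle, epithelia or embryonic stem cells, called probes of other tissues here. Their median was -0.32, -0.68 and 0.21 on arrays 1, 3 and 5 and 2.36, 1.73 and 2.39 on arrays 2, 4 and 6. miR-155 was exceeded by 0, 4 and 18 of the 28 on arrays 1, 3 and 5 and by 6, 19 and 17 on arrays 2, 4 and 6. miR-146 was exceeded by 0 of the 28 on each of arrays 1, 3 and 5, and by 22, 24 and 21 on arrays 2, 4 and 6. In the mean over both dyes, 1 of the 28 (miR-129) stood above miR-155 and 0 above miR-146. Their dye effect had a median of -2.42, beside the -1.92 of miR-155, and was below 0 for 27 of 28. Signal over background was not used here, and its part in these dye effects was not tested.

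Against haematopoietic miRNAs the picture differed. The probes for both strands of miR-142, miR-150, abundant in resting lymphocytes, and miR-181, which tunes T cell receptor sensitivity, had 0 called higher, 3 lower and 1 not called as deposited, and 4 lower relative to the median, where 8.77% and 22.8% of all miRNA probes were lower. The ratio of miR-146 exceeded their median by 3.06, 2.60 and 2.68 on arrays 1, 3 and 5 and by 2.84, 1.91 and 2.95 on arrays 2, 4 and 6. The distance was thus large on all 6 arrays, with the orientations overlapping. For miR-155 it was 1.39, 0.93 and 0.70 in one orientation and 3.85, 3.05 and 3.19 in the other, which did not overlap. These distances were computed after the data were seen and have no test. The probes for miR-181b and miR-181c were not on this haematopoietic list. miR-181b had 0.17 as deposited (not called) and -0.60 relative to the median (lower). miR-181c had 0.38 and -0.39 and was called under neither zero point. Of markers of other blood or stromal cells, the myeloid list held miR-223 alone, higher as deposited at 4.12 ± 0.855 (SD, n = 3; limma adjusted p = 0.000103) and relative to the median at 3.34 ± 0.654. Of the erythroid list miR-144 was measured, higher as deposited at 0.69 ± 0.870 (adjusted p = 0.0302) and not called relative to the median at -0.079 ± 0.885. Of 5 endothelial or stromal probes, 5 were higher as deposited, as 67.3% of all probes were, and 1, miR-214, relative to the median, as 5.26% were. The probes for miR-126*, miR-199-s, miR-199-as and miR-199b were not on this list, and all passed as higher as deposited. Relative to the median miR-126* was higher (0.59), and miR-199-s (0.43), miR-199-as (0.36) and miR-199b (0.32) were not called. The part of such cells in the ratios of miR-155 and miR-146 was not tested.

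**Figure D3:**
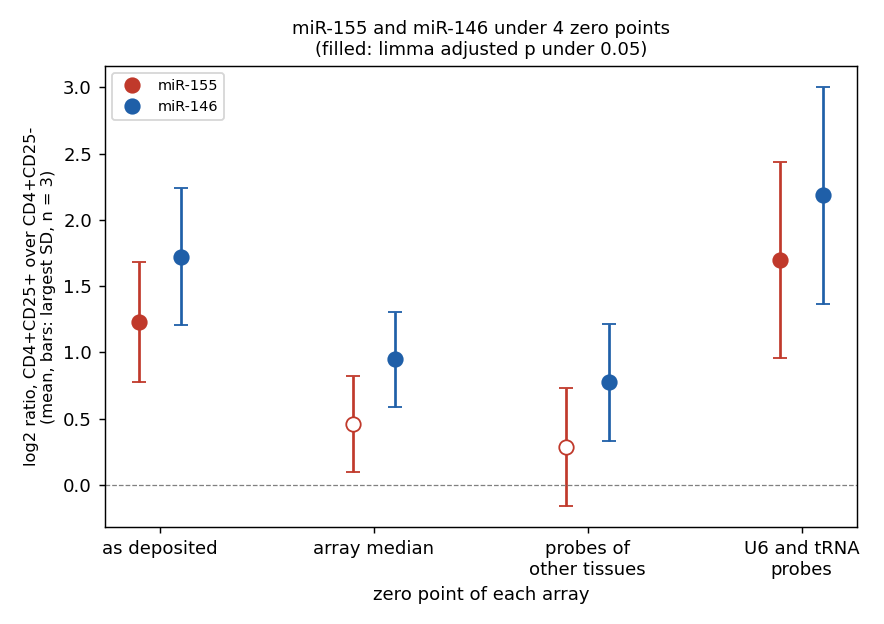
Mean log2 ratio of miR-155 and miR-146 (vertical axis; bars are the largest SD, n = 3) with each array's zero as deposited, at its miRNA median, at the probes of other tissues or at U6 and the tRNAs. At the least favourable pairing, miR-146 passed the test (filled) under all 4 zero points shown and miR-155 under 2 of them. With the zero at the probes of other tissues, miR-146 was above 0 on arrays 1, 3 and 5 and below 0 on arrays 2, 4 and 6.

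With the arrays set to 0 at the probes of other tissues, miR-146 had 0.77 ± 0.440 (SD, n = 3) and passed (limma adjusted p = 0.0271), and miR-155 had 0.28 ± 0.446 and did not (0.409). With 0 at the 5 probes for U6 and tRNAs, miR-146 had 2.19 ± 0.820 (adjusted p = 1.16e-05) and miR-155 1.70 ± 0.739 (adjusted p = 0.0004). miR-146 had the larger mean under each of these zero points by construction, since they shift both probes alike. The difference of miR-146 minus miR-155 was 0.49 ± 0.335 (SD, n = 3). It was 1.67, 1.66 and 1.98 on arrays 1, 3 and 5 and -1.01, -1.14 and -0.24 on arrays 2, 4 and 6, so the order of the members reversed with the dye on every array. An exact sign-flip test of 3 replicates could not pass, and none was run.

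Other miRNAs described as regulated by NF-kB or acting on its pathway moved in both directions. Of the 14 probes on that list, members included, 10 were higher, 1 was lower and 3 were not called as deposited, around a median of 0.90, beside 0.82 over all miRNA probes, of which 67.3% were higher and 8.77% lower. Relative to the array median 3 were higher, 4 lower and 7 not called (median 0.12, beside 0.051 over all, where 5.26% were higher and 22.8% lower). Those higher under both zero points were miR-146, miR-10a (0.69 ± 0.195 relative to the median, SD, n = 3) and miR-223, a miRNA of myeloid cells (3.34 ± 0.654), where 5.26% of all probes were higher under both. miR-29b, which restrains interferon gamma, was lower under both (-1.49 ± 0.390), as 8.77% of probes were. miR-15a (-1.31 ± 0.392), let-7i (-1.27 ± 0.464) and miR-16 (-0.62 ± 0.481) passed as lower relative to the median only. miR-21 (0.35 ± 0.341), miR-125b (0.19 ± 0.334), miR-9 (0.052 ± 0.344) and miR-132 (-0.17 ± 0.303), all linked to NF-kB or Toll-like receptor signalling, did not pass relative to the median.

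Among the 17 probes of miRNAs tied to Foxp3 or to regulatory T cells, 13 were higher, 1 lower and 3 not called as deposited (median 0.92, beside 0.82 over all, where 67.3% were higher and 8.77% lower). Relative to the median 4 were higher, 4 lower and 9 not called (median 0.14), beside 5.26% higher and 22.8% lower over all. The shares of higher calls as deposited and of lower calls relative to the median were thus close to those over all probes. The 4 of 17 higher relative to the median were a larger share than the 5.26% over all, on a list chosen with earlier results known. The 4 higher under both were miR-146, miR-125a (0.97 ± 0.314 relative to the median, SD, n = 3), miR-10a and miR-214 (2.14 ± 1.35). miR-142-as, the strand that acts on adenylyl cyclase 9 and is kept low by Foxp3, was lower under both at -1.97 ± 0.262. miR-17-5p (-1.02 ± 0.303), with miR-15a and miR-16, was lower relative to the median only. miR-31, which acts on Foxp3 messenger RNA, had 0.30 ± 0.183 and did not pass. The lists share 6 probes, and some of their miRNAs may have been tied to regulatory T cells by work that includes these arrays, so the counts are not independent evidence of a direction.

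**Figure D4:**
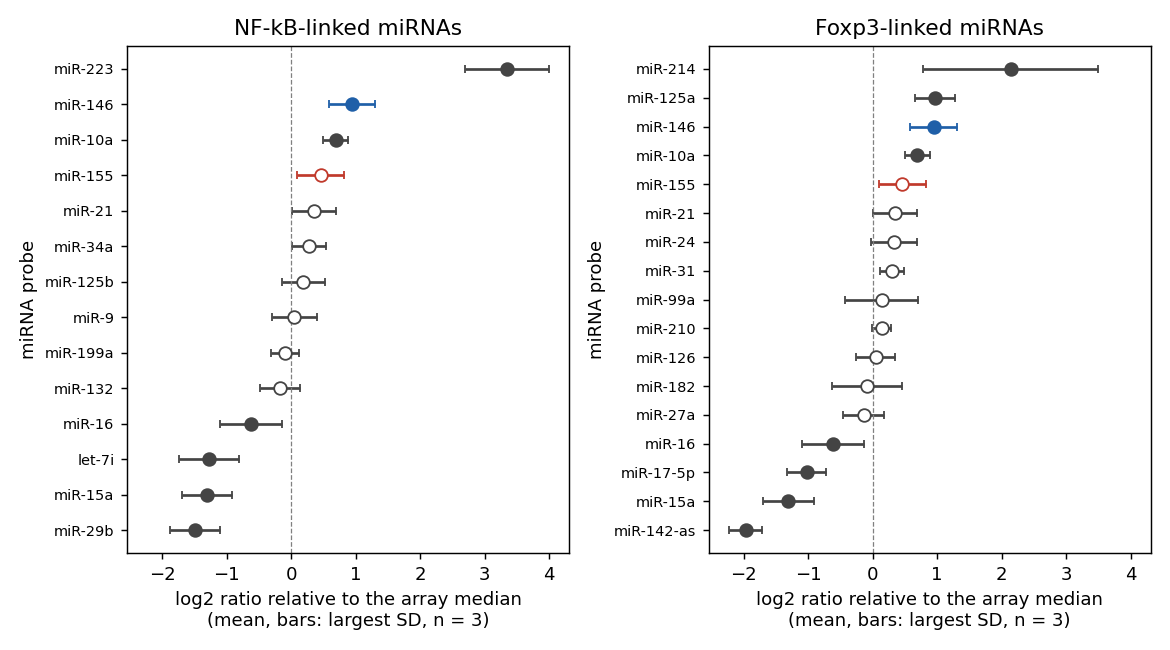
Log2 ratio relative to the array median (horizontal; mean and largest SD, n = 3) of each probe on the NF-kB-linked and Foxp3-linked lists; filled points passed the test. miR-146 (blue, 0.95) is filled. miR-155 (red, 0.46) is not, a call that depended on the pairing of the arrays. The lists run from -1.49 to 3.34 and from -1.97 to 2.14.

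The members did not resemble each other across arrays. Likeness was taken as the root-mean-square difference of the median-relative ratios over the 6 arrays. The difference between miR-155 and miR-146 was 1.41, and 120 probes were nearer to miR-155 than miR-146 was. Seen from miR-146, miR-155 was in place 33 by nearness. The 5 probes nearest to miR-155 were miR-130a (0.302), miR-216 (0.308), miR-126* (0.325), miR-199b (0.361) and miR-31 (0.377). Of these, miR-216 is a pancreatic miRNA, and miR-126* was the 1 called higher relative to the median. The 5 nearest to miR-146 were miR-23a (0.402), miR-23b (0.533), miR-21 (0.606), miR-125a (0.62) and miR-99b (0.653), with miR-23a and miR-125a called higher relative to the median. Pearson's r over the 6 arrays was 0.904 to 0.999 for the neighbours of miR-146 and 0.155 to 0.71 for those of miR-155; the points share 3 replicates and 2 dye orientations, so r is a description.

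**Figure D5:**
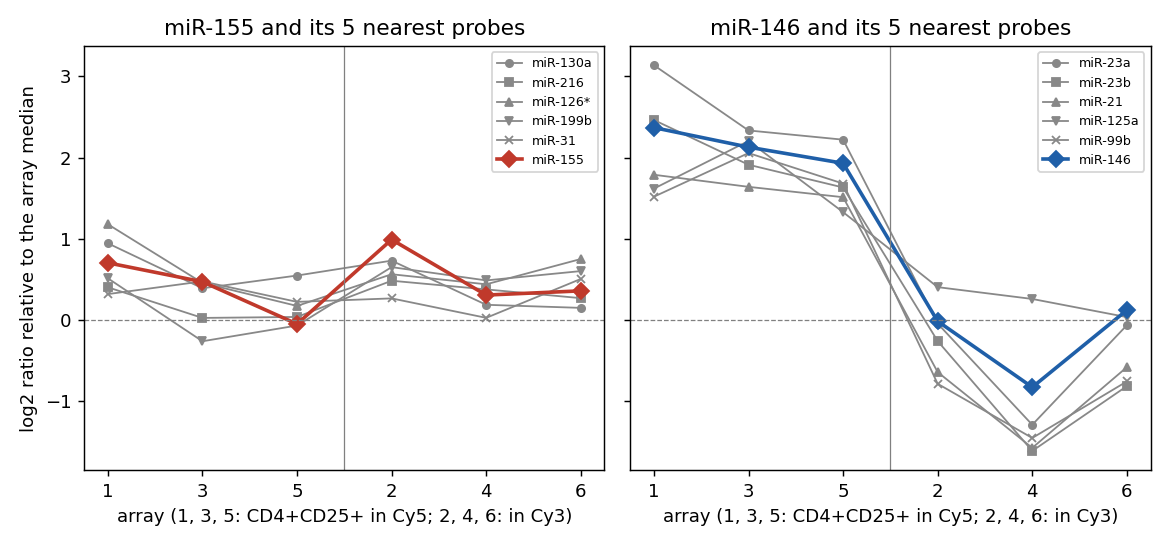
Log2 ratio relative to the array median (vertical) on each array for miR-155 and its 5 nearest probes (left) and miR-146 and its 5 nearest (right). The right-hand probes are high on arrays 1, 3 and 5; of them miR-125a alone is above 0 on each of arrays 2, 4 and 6.

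In the order of mean ratios, miR-146 followed miR-23a (1.82 ± 0.730, SD, n = 3) and miR-125a (1.74 ± 0.292) and preceded miR-297 (1.62 ± 0.927) and miR-207 (1.59 ± 1.10), gaps all smaller than the spread of miR-146 itself. miR-155 followed miR-129 (1.25 ± 0.460) and miR-147 (1.24 ± 1.08) and preceded miR-133 (1.21 ± 0.670) and miR-199-s (1.20 ± 0.444), again within its spread. The neighbours of miR-155 in this order include miR-129 and miR-133, which are best known from brain and muscle.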

How the data were processed

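The authors deposited a log2 ratio (base and direction not stated, taken as log2 of Cy5 over Cy3) per probe and array. Steps not given in the sources used here include background correction, normalization and software. The medians of the miRNA probes differed between arrays, so the arrays had not been centred on the median of these probes. Without scanner intensities, dim probes could not be told from bright ones. The number of arrays limits the precision. Arrays with CD4+CD25+ in Cy3 were multiplied by -1. limma 3.58.1 (R 4.3.3; lmFit, eBayes) was fitted to all 171 miRNA probes on 3 means of opposite-dye arrays, for all 6 pairings; a probe was called when its largest Benjamini-Hochberg adjusted p was under 0.05. The dye effect came from limma on 6 arrays with a dye column. The steps were tested on simulated data without a shift of whole arrays by dye. That test therefore does not cover the differing zero points of these arrays. Named probes were the members, the called members of 2 lists, the 5 nearest probes and 2 neighbours each way in order; other list members named, and the distances to haematopoietic probes, were picked with their values in view. Further probes of listed miRNAs that were not on the lists were also named with their values in view. Where the lists give miR-133a/b, miR-128a/b and miR-1, the probes 133, 128, 1b and 1d were used. The members and lists were chosen with earlier results of these data known. Alternatives were other zero points, scale normalization, other models, probe sets and orientations, no turning, and leaving out pairs of arrays.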

Additional observations from a re-analysis of the deposited data

Results flagged for a closer look

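As deposited, the miR-146 ratio of array 4 (0.45) lay apart from the other 5 arrays: its gap was 0.739 of the whole range, above the 95% limit of Dixon's test for 6 values, which chance exceeds in about 1 of 20 groups, and 4 were looked at. The miR-155 ratio differed between dye orientations as deposited, by -1.92 (CD4+CD25+ in Cy5 minus in Cy3; limma adjusted p = 0.000437). The miR-146 ratio differed between them relative to the array median, by 2.39 (limma adjusted p = 1.21e-05).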

How the results depend on the processing

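As deposited, miR-155 was no longer called with the zero at the probes of other tissues (0.28) or on the arrays with CD4+CD25+ in Cy5 alone (0.27), and with no array turned it was lower (-0.96) and miR-146 not called (0.32). Relative to the median, miR-155 was called on the arrays with CD4+CD25+ in Cy3 alone (0.55) and without the 42 noisiest probes (0.46, limma adjusted p = 0.0108). With no array turned it fell to -0.089, and miR-146 stayed called at 1.19 (limma adjusted p = 0.000279). On the Cy3 arrays alone miR-146 turned to -0.25. A zero at U6 and the tRNAs (miR-155 1.70, called) or at other tissues replaces the median. The same fit therefore stands beside both main results. Leaving out pairs of arrays gave, as deposited, 0.99 to 1.44 for miR-155 and 1.53 to 2.01 for miR-146, and relative to the median 0.27 to 0.63 and 0.80 to 1.15. The cause of these changes was not tested. Scale normalization, the dye column on 6 arrays, the robust fit and a fit with the 7 other small RNA probes included ended no call of a member and made none. The 130 calls among miRNA probes as deposited became 47 with the zero at other tissues and 19 on the Cy5 arrays alone, and 0 (limma; 98 at an unadjusted p under 0.05) to 127 without a pair. The 48 relative to the median became 127 with U6 and the tRNAs, 18 and 98 on the Cy5 and Cy3 arrays alone, 77 with no array turned, and 21 to 49 without a pair. Which arrays form a replicate is not labelled, so all 6 pairings were fitted and the least favourable one is reported.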
